A study of Mus musculus with 8 samples.

Results

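Adipocyte marker RNAs are transcripts that fat cells make in large amounts, although macrophages also make some of them, Lipe and Scd1 among those listed here. The set held 10 genes taken by name (Adipoq, Cfd, Car3, Thrsp, Plin1, Cidec, Retn, Lep, Scd1 and Lipe), and all 10 were found among the 41388 genes of the tables. They were read in macrophages sorted from the epididymal white adipose tissue (eWAT) of 4 male mice of the MitoFat line fed normal chow, whose ages the labels leave out. The line labels adipocyte mitochondria. In its published form, as background, Cre recombinase driven by Adipoq regulatory sequence switches on Dendra2, a fluorescent protein sent to mitochondria (mtD2). Live CD45+ F4/80+ CD64+ cells of each mouse were split into a reporter-negative (mtD2-) and a reporter-positive (mtD2+) library, 8 libraries in 4 pairs. Both populations came from the same animals, so the mtD2- cells carry the reporter alleles too. The question asked of the markers was whether adipocyte RNA goes with the reporter signal.

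White adipocytes hold their fat in a single large droplet. They secrete adipokines, coat the droplet with perilipin and CIDE proteins, release fatty acids from it with lipases and refill it with newly made fat. Macrophages of fat tissue live between adipocytes and take up lipid, debris and, as the MitoFat reporter was built to show, mitochondria from them. RNA of an adipocyte gene in a sorted macrophage library can come from the macrophage's own transcription, from material it took up or from other cells and free RNA in the sort, and these counts do not tell those apart.

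RNA of all 10 genes was counted in both populations, and the mtD2+ libraries held on average more of it without any single gene passing the test. For 9 of the 10 genes (49.9% of all tested genes) the estimated change was upward, from 1.34-fold for Retn to 4.05-fold for Plin1, an estimate that rests on few counts and moves with the model, and for Lipe it was downward. None of the 10 was called higher or lower by edgeR's quasi-likelihood test at an adjusted p of 0.05, against 5.50% of the 13933 genes tested (3.72% higher). At an unadjusted p of 0.05, 4 of the 10 were higher (Thrsp, Cfd, Car3 and Cidec), against 11.8% of all tested genes. These shares are descriptions, since the genes were chosen with earlier results of these data known and tended to move together. The difference between the populations was not shared by all animals. The summed markers were higher in mtD2+ cells in mice 1, 2 and 4 and lower in mouse 3.

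The regulatory sequence of Adipoq is shown because it is the source of the Cre expression that defines the reporter, and that of Lep because it holds the rarest motif searched. RefSeq promoter windows (GRCm38.p6) matched 8 of the 10 members, and Car3 and Scd1 had none. The 250 bases before each annotated start were searched on both strands for the CCAAT box (CCAAT or ATTGG), the TATA box (TATAAA or TTTATA), the C/EBP palindrome (TTGCGCAA) and the E-box (CACGTG). None of these motifs overlapped another in the windows printed. The Adipoq window lies at chr16:23146286-23146535 on the plus strand and the Lep window at chr6:29059971-29060220 on the plus strand, both written 5′ to 3′ and ending at the base before the RefSeq start, with motif matches in capitals.
Adipoq: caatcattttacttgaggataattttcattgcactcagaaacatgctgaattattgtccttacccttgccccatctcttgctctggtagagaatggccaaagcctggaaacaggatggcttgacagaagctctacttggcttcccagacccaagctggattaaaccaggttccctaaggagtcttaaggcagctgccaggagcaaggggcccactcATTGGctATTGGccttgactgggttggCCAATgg
Lep: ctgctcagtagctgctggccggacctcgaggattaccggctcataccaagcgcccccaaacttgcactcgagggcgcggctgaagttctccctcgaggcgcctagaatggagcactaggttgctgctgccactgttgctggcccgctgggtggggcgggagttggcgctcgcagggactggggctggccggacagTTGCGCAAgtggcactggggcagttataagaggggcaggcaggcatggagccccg

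The Adipoq window holds 3 CCAAT boxes, which begin 34, 27 and 7 bases before the start, in a stretch of 48.8% GC. A CCAAT box was present in 33.8% of 32851 such windows across the genome. The Lep window holds 1 C/EBP palindrome, 55 bases before the start, a motif found in 0.164% of windows. C/EBP factors are transcription factors of adipocyte differentiation. Thrsp had 2 CCAAT boxes, 1 of the 2 Lipe windows had an E-box, and the windows of Cidec, Plin1, Retn and Cfd held none of the 4 motifs. These matches describe the letters of the windows alone.

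The libraries held 18462287 to 27464399 gene-assigned counts. Levels are given as CPM, the count divided by a library size scaled with edgeR's TMM factors, and comparisons between genes use the deposited RPKM, which is also divided by gene length. A positive log2 fold change means a higher level in mtD2+ cells. Ptprc, which encodes CD45, stood at 459.8 ± 65.7 CPM (SD, n = 4) in mtD2- and 464 ± 45.7 in mtD2+ libraries. Adgre1, which encodes F4/80, stood at 685 ± 94.5 and 466 ± 41.7 CPM (log2 −0.55, adjusted p = 0.0336), a call lost without the mouse block (0.0737) and without mouse 1, 3 or 4 (adjusted p from 0.0764 to 0.165). Fcgr1, which encodes CD64, stood at 159.6 ± 3.05 and 118 ± 15.2 CPM (log2 −0.44, adjusted p = 0.0554). Fcgr1 was called lower with library totals (0.0437), a 1 CPM filter (0.0477), limma voom (0.0354) and the DESeq2 Wald test (0.00963). The sum of a list of 8 macrophage genes that holds these sort markers was lower in mtD2+ in all 4 mice. Its mean log2 ratio was −0.15 ± 0.07 (SD, n = 4), the groups overlapped, and 3 of the 8 genes had a log2 value above 0. The median log2 fold change of all tested genes was −0.00064. Of these genes 519 were called higher and 248 lower, a split that library totals in place of TMM factors turned to 407 and 349.

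By deposited RPKM, Car3 stood far above the other markers, with a mean of 354 over the 8 libraries and a range of 241 to 496. Cfd followed at 77.9, and its lowest library (59.3) lay above the highest Cidec library (44.4). Cidec at 25.0, Thrsp at 13.1, Lipe at 9.91, Adipoq at 7.06, Retn at 6.70 and Scd1 at 6.09 formed a middle range in which the libraries of each neighbouring pair overlapped. Adipoq had a higher mean RPKM than Retn but was the higher of the pair in only 2 of 8 libraries. Lep (1.48) and Plin1 (0.351) were lowest, and every Scd1 library lay above every Lep library. For comparison by the same unit, Plin2, the droplet coat protein that macrophages also make, had a mean of 420.02 RPKM, and the macrophage lysozyme gene Lyz2 3324.

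**Figure D1:**
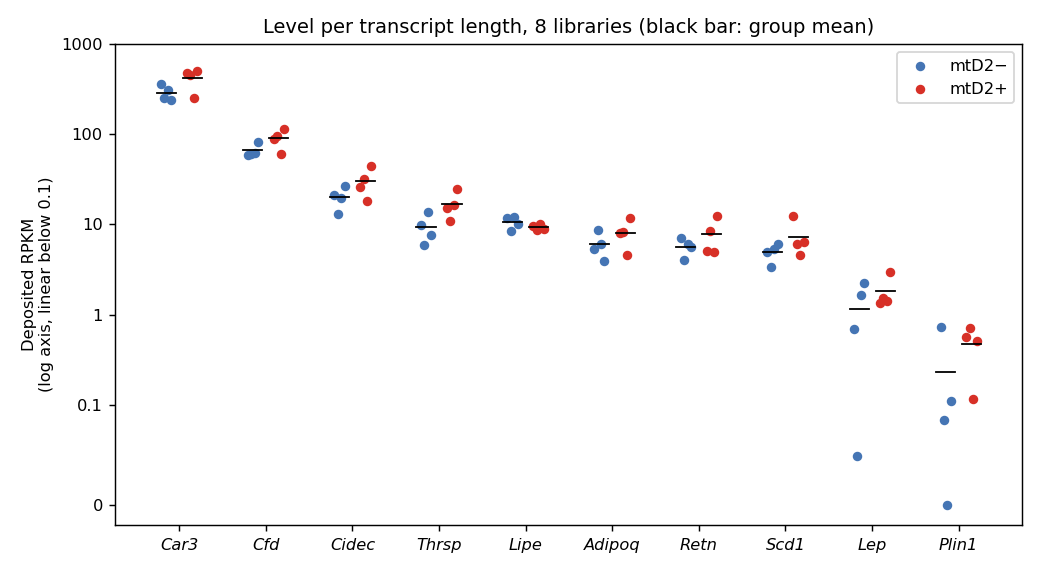
Deposited RPKM of the 10 adipocyte marker RNAs in each library, ordered by mean, with a vertical axis that is logarithmic above 0.1 and linear below. Points are libraries (4 mtD2- in blue, 4 mtD2+ in red) and black bars are group means, which run from 289.5 (mtD2-) and 419 (mtD2+) for Car3 down to 0.229 and 0.472 for Plin1.

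Among the secreted products, Adipoq encodes adiponectin, the most abundant hormone of fat cells (chromosome 16, 23146536 to 23158028). It stood at 7.12, 11.2, 7.91 and 5.93 CPM in the mtD2- libraries of mice 1 to 4 and at 11.4, 11.5, 6.29 and 16.7 CPM in the mtD2+ libraries. It was higher in mtD2+ in 3 of 4 mice, by only 0.04 on the log2 scale in mouse 2, and the groups overlapped. The fold change was 1.38 (95% interval 0.825 to 2.31, log2 0.46, SE 0.33, adjusted p = 0.442), so a change of 2-fold up and a small change down are both inside the interval. So for the gene whose regulatory sequence drives the reporter's Cre, a difference between the populations was not detectable with 4 mice.

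Cfd encodes adipsin, a serine protease of the alternative complement pathway that adipocytes secrete (chromosome 10, 79890853 to 79892656). Its mtD2- libraries held 53.3, 51.4, 54.0 and 82.6 CPM, and its mtD2+ libraries 82.5, 90.1, 56.4 and 111 CPM. Cfd was higher in mtD2+ in all 4 mice, although the mtD2- library of mouse 4 lay above the mtD2+ libraries of mice 1 and 3. The means were 60.3 ± 14.9 and 85.1 ± 22.7 CPM (SD, n = 4), a 1.40-fold difference (95% interval 1.12 to 1.75, SE of the log2 value 0.14, unadjusted p = 0.00772 and adjusted p = 0.0838 by edgeR).

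Lep encodes leptin, the hormone that reports fat stores to the brain (chromosome 6, 29060220 to 29073877). It varied most among the markers that had a count in every library, by 68.5-fold between its lowest and highest library. The mtD2- libraries of mice 1 to 4 held 2.27, 0.151, 5.26 and 8.05 CPM and the mtD2+ libraries 4.60, 5.23, 4.74 and 10.4 CPM. The mtD2- library of mouse 2 rested on 4 counts (exact Poisson 95% interval 1.09 to 10.2), against 141 counts in the mtD2+ library of that mouse. The fitted change was 2.29-fold with an interval from 0.725 to 7.23 (adjusted p = 0.372), and without mouse 2 the log2 value dropped from 1.20 to 0.41.

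Retn encodes resistin, an adipokine of mouse fat (chromosome 8, 3655770 to 3660110). The mtD2- libraries held 10.8, 5.90, 9.08 and 9.52 CPM, and the mtD2+ libraries 8.07, 13.5, 7.88 and 20.7 CPM. Mice 2 and 4 had more Retn in mtD2+ cells and mice 1 and 3 had less. The fold change of 1.34 (0.791 to 2.27, adjusted p = 0.497) was smaller than the spread between mice.

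The droplet proteins gave the widest and one of the tighter estimates. Plin1 encodes perilipin 1, which coats the adipocyte droplet and gates its lipases (chromosome 7, 79721164 to 79732776). It was the rarest marker, with 35, 4, 0 and 5 counts in mtD2- and 24, 37, 5 and 18 in mtD2+ libraries. In CPM this was 1.35, 0.151, 0 and 0.230 against 1.09, 1.37, 0.221 and 1.02. The count of 0 in the mtD2- library of mouse 3 allows up to 0.126 CPM on the same scale (3 counts of that library). The mtD2+ level was higher in mice 2, 3 and 4 and lower in mouse 1, and the fitted 4.05-fold change had an interval of 0.824 to 19.9 (adjusted p = 0.276). Its log2 value of 2.02 became 1.09 without the mouse block and 1.33 with limma voom. The plain group means, 0.432 ± 0.617 and 0.927 ± 0.494 CPM, lay closer together than the fitted change.

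Cidec, which fuses small droplets into large ones, was first described as a fat-specific protein (chromosome 6, 113424634 to 113435760). Its mtD2- libraries were at 38.0, 22.3, 34.0 and 53.6 CPM and its mtD2+ libraries at 49.1, 60.7, 33.4 and 86.1 CPM. Mice 1, 2 and 4 had more in mtD2+ cells, and in mouse 3 the values differed by −0.02 on the log2 scale. The difference was 1.53-fold (1.09 to 2.16, SE of the log2 value 0.22, unadjusted p = 0.0204, adjusted p = 0.138 by edgeR).

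Lipe encodes hormone-sensitive lipase, which releases fatty acids from stored fat and is also made by macrophages (chromosome 7, 25379527 to 25398710). It was the steadiest marker, with 51.0, 35.4, 51.1 and 49.5 CPM in mtD2- and 44.0, 40.0, 45.1 and 42.0 CPM in mtD2+ libraries. Mice 1, 3 and 4 had less in mtD2+ cells and mouse 2 had more, and the groups overlapped. The interval of the fold change, 0.751 to 1.14 around 0.925, excludes a rise of the size estimated for Thrsp or Cidec (log2 −0.11, SE 0.13, adjusted p = 0.66). An antisense gene, 4732471J01Rik, overlaps Lipe, and the counting strand is not given, so antisense reads within Lipe cannot be told apart. That gene's own counts stood at 0.399 ± 0.174 and 0.53 ± 0.122 CPM.

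Of the genes of fat synthesis, Thrsp had the smallest p among the markers. It encodes Spot 14, a thyroid hormone-responsive protein that promotes lipogenesis (chromosome 7, 97412938 to 97417730). The mtD2- libraries held 12.3, 7.07, 16.7 and 10.5 CPM and the mtD2+ libraries 19.7, 14.3, 21.2 and 33.0 CPM. Thrsp was higher in mtD2+ in all 4 mice, by log2 0.68, 1.02, 0.35 and 1.65, and the mtD2- library of mouse 3 lay above the mtD2+ library of mouse 2. The change was 1.89-fold (1.29 to 2.76, SE of the log2 value 0.24, unadjusted p = 0.00426, adjusted p = 0.0631 by edgeR), the marker nearest to the threshold.

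Scd1, the desaturase that makes oleate for storage and a gene that macrophages also use (chromosome 19, 44394451 to 44407709), stood at 23.5, 15.01, 24.2 and 31.5 CPM in mtD2- and 60.3, 29.5, 21.9 and 31.9 CPM in mtD2+ libraries. Its mtD2+ library of mouse 1 stood well above the other 7, which reached 31.9 CPM. Mice 1 and 2 carried the difference, mouse 4 had nearly equal values and mouse 3 had less in mtD2+. The fold change was 1.47 (0.978 to 2.20, adjusted p = 0.244).

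Car3 encodes carbonic anhydrase 3, one of the most abundant proteins of the adipocyte cytosol (chromosome 3, 14863538 to 14872351). Its mtD2- libraries held 523, 352, 439.8 and 395 CPM and its mtD2+ libraries 732, 690.2, 385 and 781 CPM. The mtD2+ libraries of mice 1, 2 and 4 lay above every mtD2- library, and that of mouse 3 lay below 3 of them. The means were 427 ± 73.1 and 647 ± 179 CPM, 1.48-fold apart (1.098 to 2.00, SE of the log2 value 0.19, unadjusted p = 0.0158, adjusted p = 0.12 by edgeR).

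**Figure D2:**
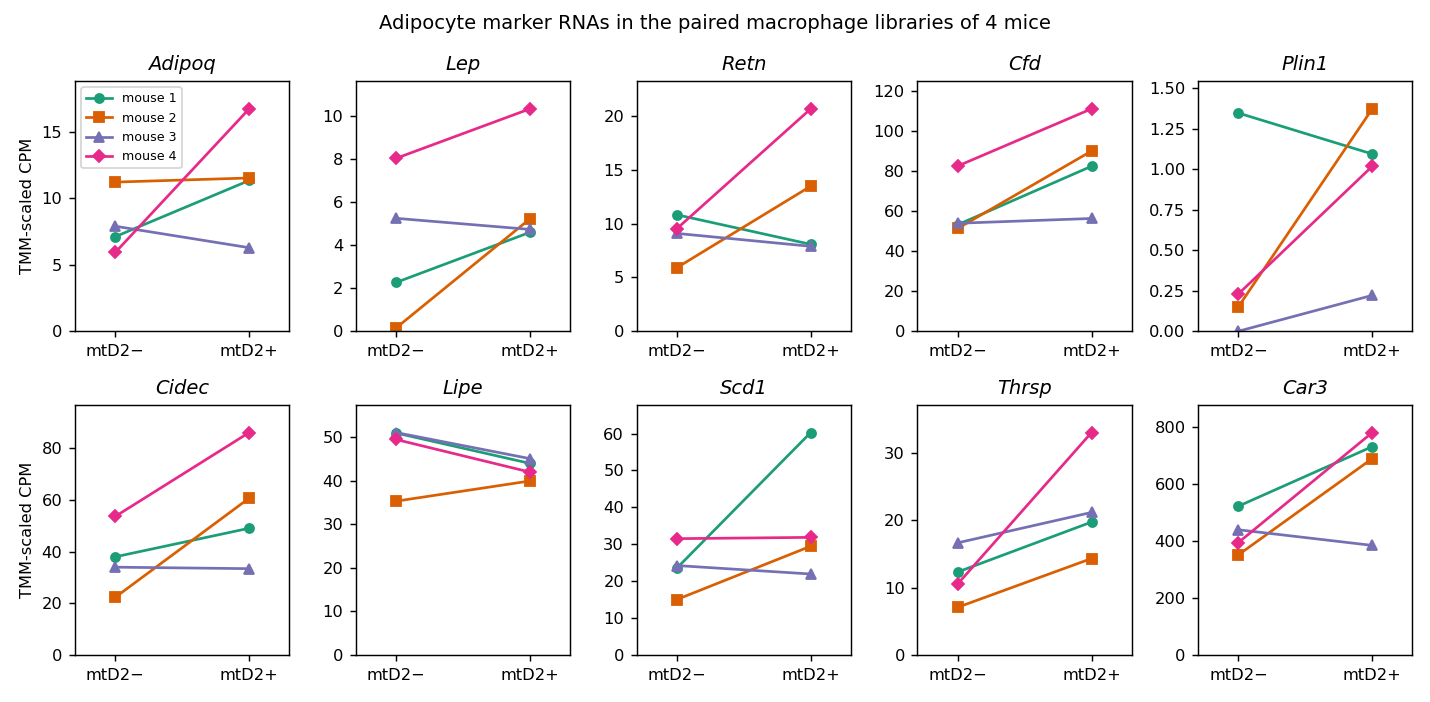
TMM-scaled CPM of each adipocyte marker RNA, with 1 line per mouse joining its mtD2- and mtD2+ library and each vertical axis starting at 0. Cfd and Thrsp are higher in mtD2+ in all 4 mice, Lipe is lower in 3 of 4, and in mouse 3 only 3 of the 10 markers are higher.

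Read across animals, all 10 markers were higher in the mtD2+ library of mouse 2, 9 in mouse 4, 7 in mouse 1 and 3 in mouse 3. Among all tested genes the mtD2+ library was the higher one for 47.8% to 51.2% in each mouse. In mouse 3 the 3 that were higher were Cfd, Thrsp and Plin1. Only Cfd and Thrsp were higher in all 4 mice (2 of 10, against 16.3% of all tested genes), 8 of 10 were higher in at least 3 (against 37.2%), and no marker separated the groups without overlap (against 12.6%). The median log2 fold change of the 10 was 0.56, next to −0.00064 over all tested genes.

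Summed, the 10 markers took 742, 537, 682 and 595 CPM of the library total in mtD2- and 994, 938, 580.5 and 1086 in mtD2+ libraries. With reads taken as independent, the exact binomial 95% intervals spanned at most 1.71% of the value on either side. These intervals cover counting error only. Amplified reads without molecular identifiers are not independent molecules, so the intervals may be too narrow. The mean log2 ratio within mice was 0.47 ± 0.51 (SD, n = 4), made of 0.42, 0.81, −0.23 and 0.87 for mice 1 to 4. Its SD was larger than its mean. Without mouse 3 the mean was 0.70, and without mouse 4 it was 0.33. Car3 gave 61.1% to 72.4% of the summed counts, and the sum of the other 9 markers had ratios of 0.43, 0.71, −0.13 and 0.55.

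**Figure D3:**
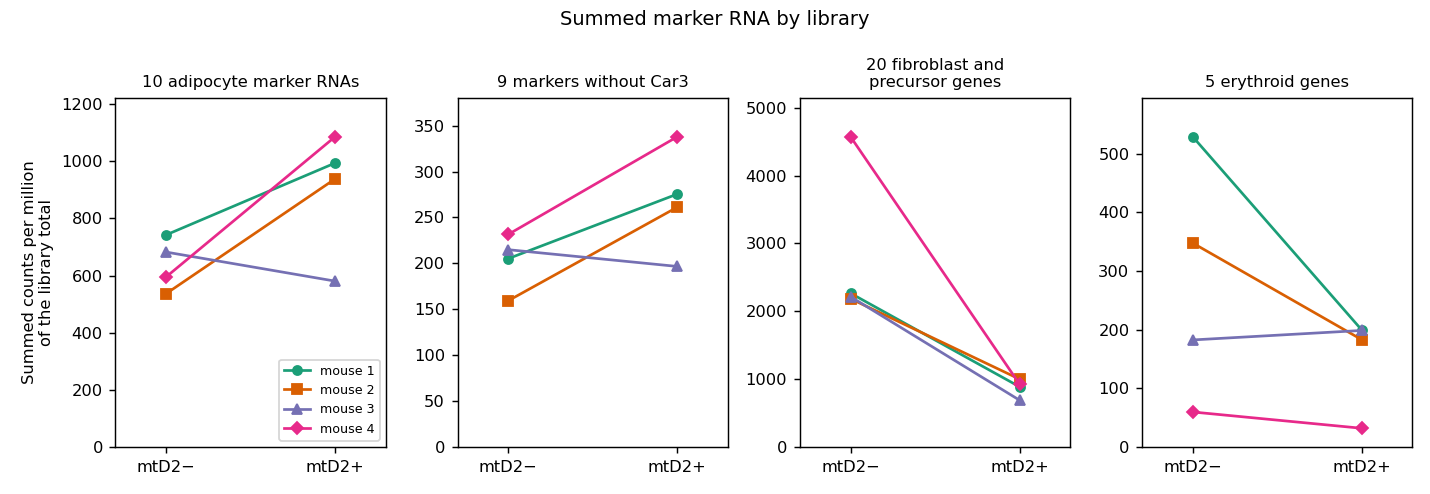
Counts summed over gene lists as CPM of the library total, with 1 line per mouse from mtD2- to mtD2+ and axes starting at 0. The adipocyte markers are higher in mtD2+ in 3 of 4 mice with and without Car3, the fibroblast and precursor genes are lower in all 4 mice, and the erythroid genes are lower in 3.

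The choice of test decided how many markers passed. With the DESeq2 Wald test and the same mouse block, 4 of the 10 were called higher (Thrsp at an adjusted p of 0.00601, Car3 at 0.00794, Cfd at 0.0212 and Cidec at 0.0327), where that test called 8.15% of all genes higher. With limma voom only Thrsp passed (adjusted p = 0.0468, 4.98% of all genes called higher). Thrsp also passed edgeR's test with no filter on low counts (adjusted p = 0.0313, 2.92% of all genes higher) and with the stricter filter of 1 CPM in at least 4 libraries (0.0488, 5.00% of all genes higher). Adipoq, Lep, Retn, Scd1, Plin1 and Lipe passed none of the settings run. No marker passed without the mouse block (1.56% of all genes called), with RLE factors (5.54%), with library totals (5.43%), with thinned counts (5.84%) or on leaving out mouse 1, 2, 3 or 4 (1.54%, 1.96%, 1.18% and 3.95%). Plin1 was not tested under the 1 CPM filter or without mouse 1, and no marker changed sign under the settings in which it was tested.

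**Figure D4:**
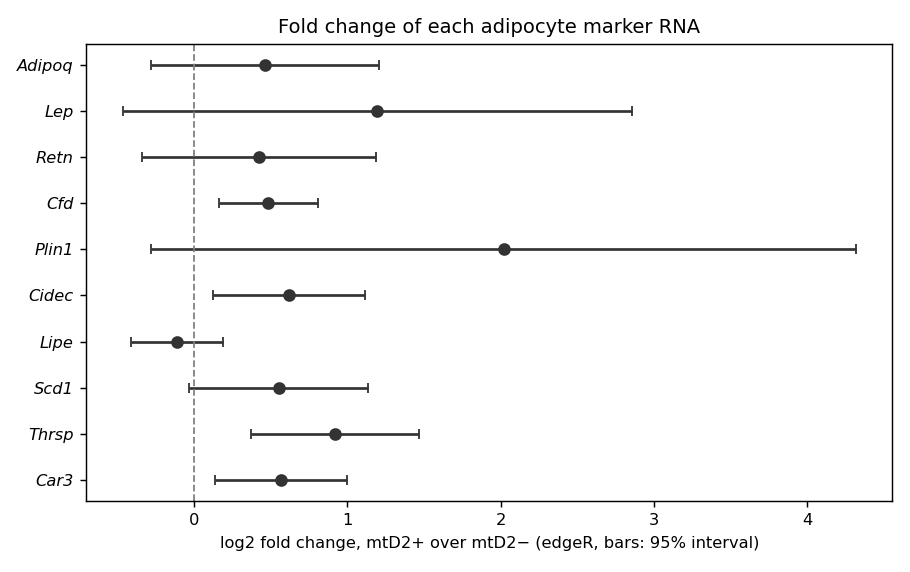
Log2 fold change of each adipocyte marker RNA, mtD2+ over mtD2-, from edgeR's test with the mouse as a block. Points are estimates and bars 95% intervals, which lie above 0 for Thrsp, Cfd, Car3 and Cidec before adjustment and reach from −0.28 to 4.32 for Plin1.

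The markers tended to go up and down together over the 8 libraries, Lipe excepted. Pearson's r between log2(CPM + 1) values was above 0 in 41 of 45 pairs of markers, with a median of 0.54, given here as a description since the libraries share mice and groups. Cfd and Cidec were the closest pair (r = 0.94). Each marker other than Lipe had an r of 0.60 to 0.85 with the sum of the other 9, and Lipe had −0.05. Car3 gave 61.1% to 72.4% of the summed counts, so for markers other than Car3 this r mostly follows Car3. Some single pairs were weak, such as Adipoq and Lep (r = 0.03) and Plin1 and Lep (r = 0.19). Adipoq and Lipe were the most opposed pair (r = −0.65). Outside the list, 9352 genes were ranked by r with the summed markers, leaving out genes with Gm or Rik names and antigen receptor segments. Their median r was −0.06 and their 95th percentile 0.68. Il6, the cytokine interleukin 6, came first with r = 0.95 over 8 libraries. As the top of so many genes over few libraries, this r is a description and was not tested. Il6 levels were 8.53 ± 1.68 CPM in mtD2- and 16.6 ± 6.96 in mtD2+ (log2 0.88, adjusted p = 0.112 by edgeR). The cytokine receptor chain gene Il10rb (0.92), Ildr1 (0.91), Zfp330 (0.91), Gnb1l (0.90), H2-Q5 (0.89), the splicing factor gene U2af2 (0.89) and Ftsj1 (0.89) came next, and none of them was called.

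Other adipocyte genes did not share one direction. Of 30 genes of adipocyte fat metabolism, 29 were tested, 2 were called higher and 0 lower, with a median log2 fold change of 0.06 and 15 of 29 above 0. The 2 were genes that macrophages also make. Plin2, the droplet coat protein, rose by 0.63 on the log2 scale (adjusted p = 0.0134, SE 0.11), between means of 1165 ± 106 and 1803 ± 171 CPM. Lpin1, a phosphatidate phosphatase, rose by 0.59 (adjusted p = 0.0231, SE 0.11), between means of 81.6 ± 10.2 and 122 ± 6.11 CPM. Both were higher in mtD2+ in 4 of 4 mice, mouse 3 included, and both lost the call on leaving out mouse 1, 2 or 3 (adjusted p from 0.0535 to 0.0969). Dgat1, which makes triglyceride, stood at log2 0.73 (adjusted p = 0.0645), and Mlxipl, the sugar-sensing lipogenic factor ChREBP, at −0.83 (adjusted p = 0.0587). Dgat1 was called higher and Mlxipl lower with no low-count filter, the 1 CPM filter, limma voom and the DESeq2 Wald test. Across these settings adjusted p ran from 0.00608 to 0.0486 for Dgat1 and from 0.0119 to 0.0497 for Mlxipl. Summed, the fat metabolism genes had log2 ratios within mice of 0.10, 0.24, −0.04 and 0.05 for mice 1 to 4. In each mouse the ratio had the same sign as that of the summed adipocyte markers and was smaller in size. Its mean of 0.08 was below its SD of 0.12, and the groups overlapped.

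Of 24 further adipocyte markers, 20 were tested and 0 were called by edgeR, with a median log2 fold change of 0.27 and 11 of 20 above 0. Both lists together had a median of 0.24, with 26 of 49 above 0 (against 49.9% of all tested genes). By edgeR at an unadjusted p of 0.05, 7 of these 49 were higher and 4 lower, against 1642 and 1530 of 13933 tested genes. Among the 20 tested further markers, 2 were higher and 2 lower. Summed, the further markers had log2 ratios within mice of 0.26, −0.12, −0.02 and −0.39 for mice 1 to 4. These ratios had the same sign as those of the summed adipocyte markers in mice 1 and 3 only. Over the 49 tested genes of both lists, DESeq2 called 4 higher and 2 lower (12.2%, against 13% of all genes) and limma voom 3 higher and 1 lower (8.16%, against 7.65%), shares near those over all genes. Nrg4, an adipose growth factor, and Sncg stood at log2 1.27 and 0.65, and the chemerin gene Rarres2 and the angiotensinogen gene Agt at −1.05 each (adjusted p = 0.157 to 0.197). Pparg, the master regulator of adipocyte differentiation, was at 17.8 ± 8.84 and 16.0 ± 7.85 CPM, and Fabp4, the fatty acid carrier of adipocytes and macrophages, at 84.6 ± 12.6 and 129 ± 52.1 CPM (log2 0.52, adjusted p = 0.113). Like the summed markers, Fabp4 was higher in mtD2+ in mice 1, 2 and 4 and lower in mouse 3. Pparg and Fabp4 were named after their values were seen.

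Genes of fibroblasts and adipocyte precursors, the list of other cells with the most counts, were lower in mtD2+ cells. Of 20 fibroblast and adipocyte precursor genes, all tested, 11 fell and 0 rose (1.78% of all tested genes were called lower), with a median log2 fold change of −1.52. The collagen gene Col1a2 fell by 2.56 (adjusted p = 0.000327, SE 0.14), and Col1a1, Col6a1 and Serpinf1, at log2 −2.51, −2.47 and −1.31, were also called (adjusted p = 0.0012 to 0.0013). Summed, these genes took 2184 to 4572 CPM of the library total in mtD2- and 689 to 999 in mtD2+ libraries, without overlap and lower in all 4 mice. They were lower both in the mice whose summed adipocyte markers were higher and in mouse 3, whose markers were lower. In a bulk library fewer cells of a type and less RNA per cell cannot be told apart, here or for the markers.

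Across 8 lists of other cells (mesothelial, endothelial, pericyte and smooth muscle, T and NK, B, neutrophil and mast, erythroid, epididymal epithelium) 37 of 68 genes were tested, and 1 was called, the B cell receptor chain gene Cd79b, which fell by 0.92 (adjusted p = 0.0419) and lost its call without the mouse block or without mouse 1, 2 or 3 (adjusted p from 0.0579 to 0.168). The mesothelial, endothelial, and pericyte and smooth muscle sums lay between 8.72 and 46.9 CPM of the library total in every library. The endothelial and the pericyte and smooth muscle sums were higher in mtD2+ in mice 2 and 4 (log2 ratios 0.88 and 0.33, and 1.09 and 1.11) and lower in mice 1 and 3, so they differed in the same direction as the summed adipocyte markers in 3 of 4 mice. The mesothelial sum did so in mice 1, 2 and 3 (log2 ratios 0.72, 0.75 and −2.03) and not in mouse 4 (−0.34). The T and NK cell sum lay between 11.7 and 34.8. The B cell sum was lower in mtD2+ in all 4 mice, at 34.1 to 61.6 against 19.2 to 32.2, most of it Cd79b. The neutrophil and mast cell sum was 52.5 to 99.9, most of it the receptor gene Csf3r, while Ly6g was at 0 in all libraries. Of 8 genes of the epididymal epithelium, the tissue beside this fat pad, 7 had no count in any library. The erythroid sum was 59.6 to 529 CPM in mtD2- and 31.8 to 199.5 in mtD2+ libraries, with Hbb-bs at log2 −0.89 (adjusted p = 0.0508). The summed adipocyte markers, 537 to 1086 CPM of the library total, stood above each of these 8 sums in every library. Without Car3, the markers lay below the erythroid sum in the mtD2- libraries of mice 1 (205 against 529) and 2 (159 against 348). They also lay below it in the mtD2+ library of mouse 3 (196.6 against 198.7), and above it in the remaining libraries. The part of other cells or free RNA in the markers was not tested.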

How the data were processed

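RNA of 8 sorted macrophage libraries (4 mice, mtD2- and mtD2+) was read as gene counts. Per the submitters' processing notes the authors ran featureCounts 1.45 (Subread), STAR 2.0.4b and bcl2fastq on build GRCm38. Counting options and strand were not given in the sources used here. Per the labels, RNA was amplified with a low-input SMARTer kit, and PCR reads without molecular identifiers are not independent molecules. The authors deposited whole-number counts per Ensembl gene, not normalised. The authors' deposited CPM column divides each count by the library total, and their deposited RPKM column further by gene length. CPM printed here is instead scaled to the tested genes and TMM factors. Symbols came from GENCODE M21 (GRCm38), which named 40340 of 41388 identifiers.

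Counts were tested with edgeR 4.0.16 (R 4.3.3), by its quasi-likelihood test with a block for the mouse and TMM normalisation. The expression filter (minimum count 10, minimum total 15, proportion 0.7, group of 4) kept 13933 genes, all 10 members among them. Calls are at a Benjamini-Hochberg adjusted p under 0.05 over all tested genes, and the SE is the log2 fold change over the square root of F. The procedure was tested on simulated data. Pairing rests on the labels, which name the mouse of each library. Deviations of the 2 libraries of mice 1 to 4 from their group means correlated at 0.039, 0.07, 0.145 and 0.251 across genes, and mouse 1 correlated better (0.058) with another mouse.

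Members and gene lists were chosen with earlier results of these data known. Named genes are the members, the sort markers, up to 4 tested genes of smallest p per list and the 8 genes of at least 5 mean CPM most like the summed markers by Pearson's r. That ranking left out genes with Gm or Rik names, antigen receptor segments and identifiers without a symbol. Alternatives were a model without the block, RLE factors, library totals, 2 other filters, DESeq2 1.42.0, limma 3.58.1 (voom), counts thinned to the smallest library and leaving out each mouse.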

Additional observations from a re-analysis of the deposited data

Results flagged for a closer look

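Within a group of 4 libraries, 1 library lay far from the other 3 in 7 of 48 groups examined. Chance flags about 1 in 20 independent groups, but these share libraries and correlated genes, so that rate cannot be set against the count. Among the markers these were Cfd at 82.6 CPM in the mtD2- library of mouse 4 (51.4 to 54.0 in the others), Plin1 at 1.35 CPM in the mtD2- library of mouse 1 (0 to 0.230), Lep at 10.4 CPM in the mtD2+ library of mouse 4 (4.60 to 5.23) and Lipe at 35.4 CPM in the mtD2- library of mouse 2 (49.5 to 51.1). Among the summed lists, the fibroblast and precursor genes stood at 4572 CPM of the library total in the mtD2- library of mouse 4 (2184 to 2265). The erythroid genes stood at 31.8 in the mtD2+ library of mouse 4 (183 to 199.5). The epididymal epithelium list had 0.0364 CPM, a single count, in the mtD2+ library of mouse 2 and 0 elsewhere, where any count would stand apart.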

How the results depend on the processing

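Over all genes 767 passed edgeR's test. Without the mouse block 218 passed, with the DESeq2 Wald test 1816, and leaving out 1 mouse left 166 to 555. Of the markers 0 passed, also without the block, with RLE factors, library totals or thinned counts, and whichever mouse was left out (0 to 0), while 1 passed with no low-count filter, with the 1 CPM filter and with limma voom, and 4 with DESeq2. Plin1 was not tested without mouse 1 or under the 1 CPM filter. The mean log2 ratio of the summed markers was 0.33 to 0.70 on leaving out each mouse and 0.39 to 0.50 on leaving out each marker. Of the other adipocyte genes 2 were called. Without the replicate block 1 was called (Lpin1 lost its call, adjusted p = 0.0502), with no low-count filter, the 1 CPM filter or limma voom 4, with DESeq2 6, and without each mouse 0 to 2. Of the fibroblast and precursor genes 11 were called, and 7 to 11 without each mouse. Of the genes of 8 other cell types 1 was called. Without the block it was 0, with library totals, the 1 CPM filter, limma voom or thinned counts 2, with no filter 3, with DESeq2 8, and without each mouse 0 to 2. Of the 8 called by DESeq2, 3 were higher and 5 lower in mtD2+ (21.6% of 37 genes, against 13% of all genes). The log2 value of Ptprc turned to −0.038 with library totals and lay between −0.063 (without mouse 4) and 0.063 on leaving out each mouse. That of Pnpla2, the lipase ATGL, named after its values were seen, was −0.12 and lay between −0.32 and 0.0089 (without mouse 3). Neither was called. The causes of these shifts were not tested. Depth limits Plin1 (0 to 37 counts a library) and the lowest Lep library (4 counts).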
